A study of Mus musculus with 16 samples.

Results

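Neurotrophins are secreted growth factors of neurons, and 7 genes of this system were followed here: the ligands Bdnf and Ntf3, the related factor Gdnf, the receptor kinases Ntrk2 (TrkB) and Ntrk3 (TrkC), the pan-neurotrophin receptor Ngfr and the sorting receptor Sort1 (sortilin). They were picked by symbol and not by a threshold on their values, and are 7 of the 53679 genes and 49 of the 135202 isoforms in the table. Levels are in FPKM, the fragments assigned to an isoform divided by its length and by the size of the library, and a gene's level is the sum over its isoforms. In none of the comparisons did a member pass both thresholds for a differentially expressed gene (DEG), a padj of at most 0.05 and a change of at least 2-fold. Inside Ntrk2, the full-length isoform was lower in every OGD-VEH culture than in any CONTROL-VEH culture. It did not pass these thresholds (limma padj = 0.140), and 5.83% of all isoforms tested were lower without overlap in the same way. Summed Ntrk3 and Sort1 were also lower without overlap in OGD-VEH, as were 9.95% of genes. The truncated isoform T1 of Ntrk2 ranged widely and was highest in the cultures with the most astrocyte marker RNA.

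BDNF and neurotrophin-3 are made as proneurotrophins, are sorted in part by sortilin, and are cleaved by convertases or extracellular proteases to the mature factors. The mature factors bind Trk receptor kinases, which signal through adaptors such as SHC1 and FRS2 to support survival, growth and synaptic change, whereas the uncleaved forms bind NGFR together with sortilin. TrkB and TrkC also occur as truncated proteins without the kinase domain, of which TrkB-T1 is the main TrkB form of astrocytes.

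RNA came from primary cortical neuron cultures of wild-type mouse embryos at E15. The cultures received vehicle (VEH) or 10 µM of the antidepressant tianeptine (TIA) at DIV 8, which is 24 h before 3-h oxygen-glucose deprivation (OGD) or sham treatment at DIV 9, and RNA was taken 6 h afterwards. The 4 groups of 4 cultures each were CONTROL-VEH (cultures 1 to 4), CONTROL-TIA (5 to 8), OGD-VEH (9 to 12) and OGD-TIA (13 to 16). The 4 cultures of a group are described as biological replicates, but whether they came from separate preparations is not given in the sources used here, so p-values measure the spread between these cultures.

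All 9 neuron markers, such as Map2, Snap25 and Syt1, were above a mean of 0.5 FPKM, and so were the 7 astrocyte markers. Of the microglia markers 6 of 7 lay under 0.5 FPKM, as did 5 of 7 vascular and fibroblast markers. The depth, estimated from the FPKM that 1 read gives in genes with a single isoform, was 19.67 to 24.69 M reads per culture. At these depths Ntrk2 rested on 9669 to 23629 reads, Ntrk3 on 3511 to 9185 and Sort1 on 3616 to 5308. Bdnf (78 to 241 reads), Ntf3 (36 to 227) and Ngfr (29 to 100) rested on far fewer, and Gdnf, on 0 to 6, was at the limit of detection.

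The truncated and full-length receptors share their first coding bases and then part. The stretches below show where, because the Ntrk2 result turns on which of these ends was transcribed. Each line gives the last 30 shared coding bases in lower case and the first coding bases after the shared part in capitals, from the GENCODE M21 transcripts on GRCm38.
Ntrk2-201 (full-length, plus strand, capitals chr13:58985802-58985861): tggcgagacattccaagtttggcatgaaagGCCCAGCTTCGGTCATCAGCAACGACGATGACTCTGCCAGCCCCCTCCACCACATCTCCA
Ntrk2-202 (T1, plus strand, capitals chr13:58932023-58932060): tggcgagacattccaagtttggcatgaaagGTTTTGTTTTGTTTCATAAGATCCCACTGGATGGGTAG
Ntrk3-201 (full-length, minus strand, capitals chr7:78260355-78260414): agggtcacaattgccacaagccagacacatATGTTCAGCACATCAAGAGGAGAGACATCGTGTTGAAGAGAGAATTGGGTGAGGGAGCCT
Ntrk3-202 (truncated, minus strand, capitals chr7:78304367-78304426): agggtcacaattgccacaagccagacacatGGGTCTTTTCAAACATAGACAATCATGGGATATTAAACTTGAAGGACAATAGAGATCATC

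The T1 isoform shares 1393 coding bases with the full-length isoform and then adds 38, which end in the stop codon TAG and are all shown. Ntrk2-204 has the same T1 end, and Ntrk2-207 is a second full-length isoform. The full-length isoform adds 1073 coding bases to the same start, and these hold the kinase domain. In Ntrk3 the shared part is 1585 coding bases long, after which the truncated isoform adds 254 and the full-length isoform 893. With 50-base single reads, most reads of a shared exon cannot tell these isoforms apart, and the values of single isoforms are estimates of how such reads divide.

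Among the ligands, Bdnf (chr2:109674700-109727007, plus strand, 11 isoforms) was expressed at a low level in all groups. The 4 CONTROL-VEH cultures held 2.485, 2.418, 2.658 and 1.228 FPKM, and the 4 OGD-VEH cultures 2.040, 1.849, 1.931 and 0.969 FPKM. The groups overlapped, since CONTROL-VEH 4 lay below 3 of the OGD-VEH cultures. OGD-VEH against CONTROL-VEH gave a log2 fold change of -0.35 ± 0.32 (SE, limma padj = 0.468). CONTROL-TIA cultures ranged from 1.756 to 2.356 FPKM and OGD-TIA cultures from 0.876 to 2.425, with a log2 fold change of -0.36 ± 0.29 (limma padj = 0.495). Bdnf thus did not differ beyond its spread in either arm, and in each of the 4 groups its lowest culture (CONTROL-VEH 4, CONTROL-TIA 8, OGD-VEH 12 and OGD-TIA 16) was the one with the highest astrocyte marker sum.

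The 11 Bdnf isoforms code for the same mature factor and differ mainly in their first exon. They start in 5 separate stretches, and the isoforms that start at the fourth of these carried most of the signal, 1.51 ± 0.462 FPKM in CONTROL-VEH and 1.18 ± 0.374 in OGD-VEH (SD, n = 4). This was 69.0% ± 6.95 of Bdnf in CONTROL-VEH and 71.6% ± 17.9 in OGD-VEH (SD, exact permutation p = 0.857, two-sided). Only Bdnf-205 and Bdnf-209 reached a group mean of 0.5 FPKM, both from this stretch. Bdnf-205 was at 1.340, 0.531, 0.180 and 0.457 FPKM in CONTROL-VEH and at 0.270, 1.195, 0.338 and 0.475 in OGD-VEH. It varied several-fold within each group, at a level of few reads, and the other 9 isoforms stayed at or under a group mean of 0.346 FPKM.

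Ntf3 (chr6:126101412-126166910, minus strand, 3 isoforms), which codes for neurotrophin-3, the ligand of TrkC, was the more abundant ligand. CONTROL-VEH cultures held 4.767, 7.050, 5.922 and 5.435 FPKM and OGD-VEH cultures 5.319, 3.683, 4.321 and 1.353. Of the OGD-VEH cultures 3 lay below all CONTROL-VEH cultures and culture 9 lay among them. This gave a log2 fold change of -0.78 ± 0.38 (SE, limma padj = 0.178). In the TIA arm the change was -0.41 ± 0.38 (limma padj = 0.566), with OGD-TIA cultures at 4.852, 5.931, 7.137 and 1.798 FPKM. Without OGD-TIA 16 that value was 0.01. Most of Ntf3 was isoform Ntf3-203, at 4.174 to 6.471 FPKM in CONTROL-VEH and 1.228 to 4.047 in OGD-VEH. These groups did not overlap, as for 5.83% of isoforms in this direction. The log2 fold change was -0.71 ± 0.39 (limma padj = 0.369 over all isoforms tested).

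Gdnf (chr15:7810846-7837575, plus strand), a factor for dopaminergic and motor neurons that signals through RET and GFRA1, was near the limit of detection. It lay between 0 and 0.081 FPKM in the 16 cultures, at a median of 4 reads, and was under the filter on low values in every comparison. OGD-VEH cultures were at 0.069 to 0.081 FPKM, above the 0.025 to 0.058 of CONTROL-VEH and the 0 to 0.041 of OGD-TIA. In the fit without the filter padj was 0.289 for OGD-VEH against CONTROL-VEH and 0.701 for OGD-TIA against OGD-VEH, and no fold is given at this depth.

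**Figure D1:**
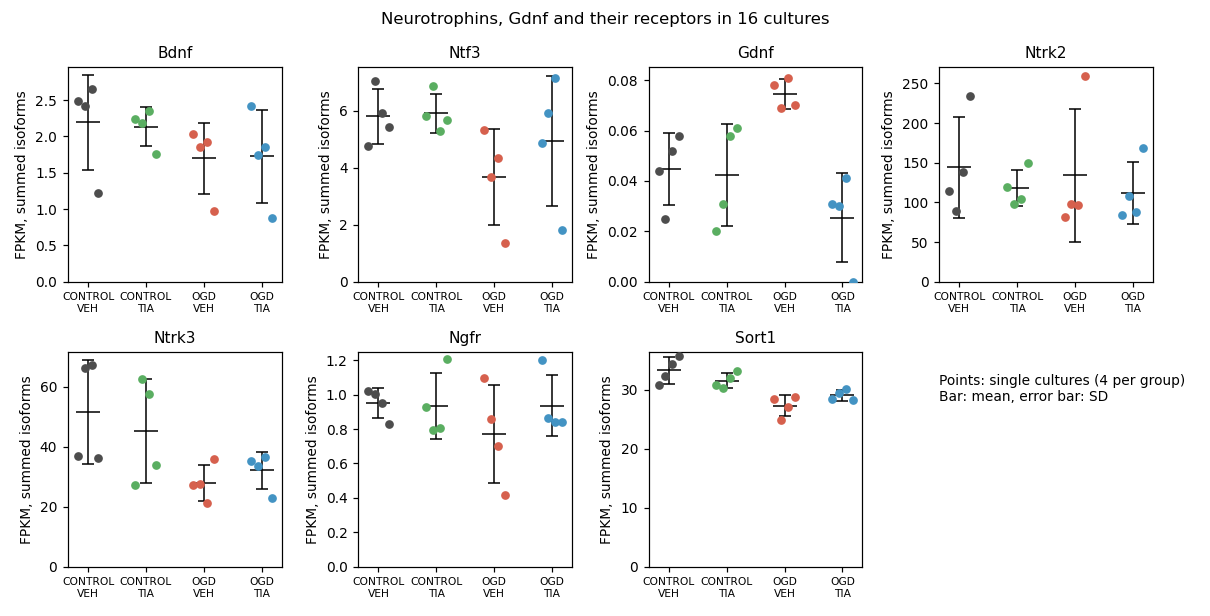
FPKM (summed isoforms, linear axes from 0) of the 7 members in 16 cultures, with points for single cultures, bars for means and error bars for the SD of 4 cultures. Sort1 is lower in all OGD-VEH cultures (24.8 to 28.7) than in CONTROL-VEH (30.7 to 35.8), while Ntrk2 has 1 high culture in CONTROL-VEH, OGD-VEH and OGD-TIA each.

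Among the receptors, Ntrk2 (chr13:58806569-59133970, plus strand, 10 isoforms) had the highest level of the 7 genes. Its sum was 114.179, 89.597, 138.615 and 234.001 FPKM in CONTROL-VEH and 81.900, 97.742, 96.631 and 259.539 in OGD-VEH. These groups overlapped, with the highest values in CONTROL-VEH 4 and OGD-VEH 12. The log2 fold change was -0.18 ± 0.41 (SE, limma padj = 0.775) in the VEH arm and -0.11 ± 0.23 (limma padj = 0.814) in the TIA arm. Part of the spread came from Ntrk2-206, a processed transcript of 356 bases without a coding end, which was estimated at 0 to 62.408 FPKM. With protein-coding isoforms alone the values were 0.18 and 0.20, so the direction of the sum is not established.

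Full-length Ntrk2-201, which codes for the kinase receptor, was at 34.220, 35.320, 36.601 and 46.570 FPKM in CONTROL-VEH. In OGD-VEH it was at 28.431, 17.865, 19.559 and 11.140 FPKM, below every CONTROL-VEH culture. Of all isoforms tested in this comparison, 5.83% were lower without overlap in the same way, so this separation by itself is not rare. The log2 fold change was -1.05 ± 0.27 (SE, limma padj = 0.140), a difference of about the size of the fold threshold that did not pass the adjustment over 53087 isoforms, of which 0.141% were called. Without OGD-VEH 9, the OGD-VEH culture with the highest level, it was called with a log2 fold change of -1.26 (limma padj = 0.0335). Calls were far more common in that fit, with 1730 of 53164 isoforms called in place of 75 of 53087. Over the other omissions padj of Ntrk2-201 reached up to 0.294.

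In the TIA arm Ntrk2-201 was at 35.597, 36.638, 35.438 and 44.917 FPKM in CONTROL-TIA and at 30.031, 30.956, 33.278 and 20.740 in OGD-TIA. These groups did not overlap either, as for 3.81% of isoforms in this direction. Here the log2 fold change was -0.42 ± 0.17 (SE, limma padj = 0.447). The smaller size in this arm is not shown to be a difference between arms, since the interaction, that is the OGD effect in TIA cultures less the one in VEH cultures, was 0.63 ± 0.33 (SE, limma padj = 0.854). The other full-length isoform, Ntrk2-207, was lower in mean in both arms and far less abundant, at 2.307 to 3.526 FPKM in CONTROL-VEH and 0.080 to 2.067 in OGD-VEH. Together the full-length isoforms were at 41.1 ± 5.59 FPKM in CONTROL-VEH, 42.0 ± 5.73 in CONTROL-TIA, 20.7 ± 7.90 in OGD-VEH and 29.7 ± 4.92 in OGD-TIA (SD, n = 4).

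T1 isoform Ntrk2-202 codes for a receptor that binds BDNF without a kinase. It was at 23.377, 22.917, 28.151 and 90.548 FPKM in CONTROL-VEH and at 28.987, 45.250, 43.315 and 106.743 in OGD-VEH. All 4 OGD-VEH cultures lay above 3 of the CONTROL-VEH cultures, and CONTROL-VEH 4 lay above 3 of the OGD-VEH cultures. Its log2 fold change was 0.54 ± 0.55 (SE, limma padj = 0.624), and over the omission of single cultures padj ran from 0.280 (without CONTROL-VEH 4) to 0.898. In the TIA arm 3 OGD-TIA cultures (27.071, 28.816 and 22.336 FPKM) were no higher than the top of CONTROL-TIA (22.414 to 33.098) and OGD-TIA 16 stood at 76.505, with a log2 fold change of 0.42 ± 0.38 (limma padj = 0.707). Ntrk2-205, another truncated isoform, was higher in all OGD-VEH cultures (1.914 to 11.036 FPKM) than in CONTROL-VEH (0.548 to 1.383), where 7.57% of isoforms were higher without overlap, with a log2 fold change of 2.08 ± 0.58 (limma padj = 0.149). Ntrk2-204, with the same T1 end, ranged from 0.710 to 19.830 FPKM in CONTROL-VEH and from 8.586 to 44.475 in OGD-VEH, overlapping (log2 fold change 1.89 ± 1.01, limma padj = 0.353). With TIA, Ntrk2-204 was at 5.518, 0.012, 6.290 and 1.024 FPKM in CONTROL-TIA and at 10.415, 9.710, 9.071 and 32.440 in OGD-TIA. These groups did not overlap, as for 5.27% of isoforms in this direction, with a log2 fold change of 3.18 ± 1.27 (SE, limma padj = 0.454).

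**Figure D2:**
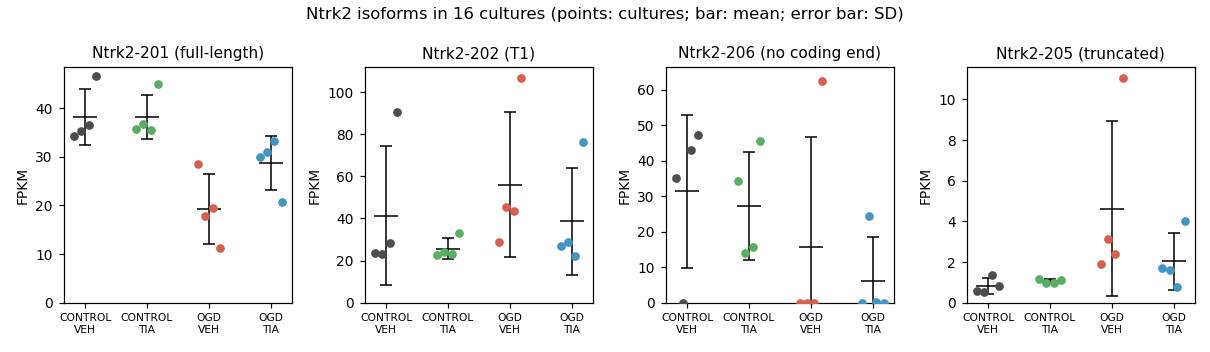
FPKM of 4 Ntrk2 isoforms in 16 cultures (linear axes from 0, points for cultures, bars for means, error bars for the SD of 4 cultures). Full-length Ntrk2-201 is lower in OGD-VEH (11.1 to 28.4) than in CONTROL-VEH (34.2 to 46.6), T1 isoform Ntrk2-202 has 1 high culture in 3 of the groups, and the short Ntrk2-206 is at or near 0 in most OGD cultures and at 62.4 in one.

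Markers of other cell types moved with these isoforms. The summed FPKM of the 7 astrocyte markers was 723 to 854 in CONTROL-VEH 1 to 3 and 1545 in CONTROL-VEH 4, and it was 983 to 1324 in OGD-VEH 9 to 11 and 2469 in OGD-VEH 12. In OGD-TIA it was 729 to 874 in cultures 13 to 15 and 1883 in culture 16, and in CONTROL-TIA 617 to 791. The 3 cultures with the highest astrocyte sums were thus the 3 with the most T1. None of the 7 astrocyte markers was called, and 2 of them (Aldh1l1 and Gja1) were higher in OGD-VEH at an unadjusted p under 0.05, against 20.2% of all genes. The sum of the 9 neuron markers was 1986 to 2663 in CONTROL-VEH, 1029 to 1853 in OGD-VEH, 2052 to 2251 in CONTROL-TIA and 1298 to 2088 in OGD-TIA. In both OGD groups it was lowest in the culture with the least Ntrk2-201, which also had the highest astrocyte sum. The control groups went the other way. CONTROL-VEH 4 (2663) and CONTROL-TIA 8 (2251) had both the highest neuron sum and the highest astrocyte sum of their group. The oligodendrocyte lineage sum was 171 to 206 in CONTROL-VEH and 232 to 637 in OGD-VEH, where Olig1, Olig2 and Cspg4 were called higher. The part of the cell make-up in the Ntrk2 values was not tested. In bulk RNA, fewer cells of a type and less RNA per cell cannot be told apart.

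**Figure D3:**
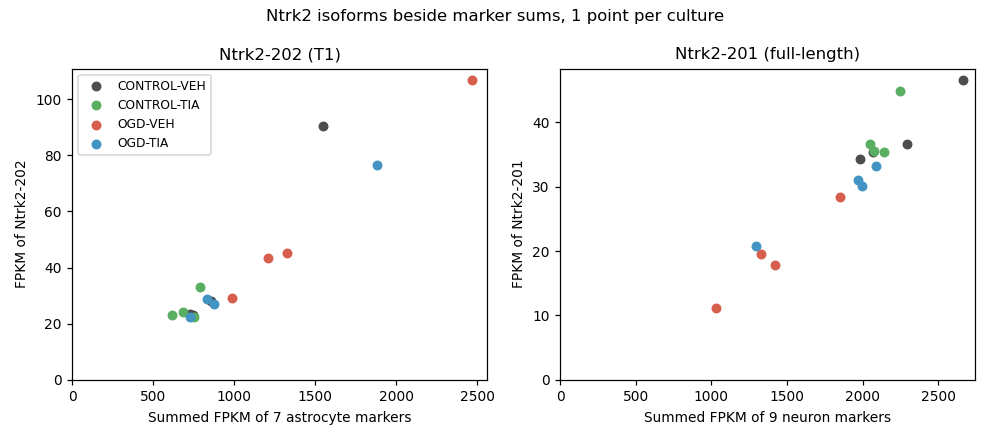
Left, FPKM of T1 isoform Ntrk2-202 against the summed FPKM of 7 astrocyte markers. Right, FPKM of full-length Ntrk2-201 against the summed FPKM of 9 neuron markers, 1 point per culture (linear axes from 0, colours for groups). CONTROL-VEH 4, OGD-VEH 12 and OGD-TIA 16 lie at astrocyte sums of 1545, 2469 and 1883 and at T1 levels of 90.5, 106.7 and 76.5 FPKM, and the axes share the library of each culture.

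As a share of all Ntrk2, isoforms with a truncated coding end made up 37.1, 56.6, 40.3 and 58.8% in CONTROL-VEH and 62.8, 79.7, 77.9 and 71.6% in OGD-VEH. Every OGD-VEH culture thus had a larger truncated share than any CONTROL-VEH culture, 73.0% ± 7.66 against 48.2% ± 11.1 (SD, n = 4). The exact permutation p was 0.0286 (two-sided), the smallest that 4 against 4 cultures can give, and padj was 0.765 over 44 share tests, none of which passed. In the TIA arm the share was 64.8% ± 16.1 against 42.0% ± 5.30 (exact permutation p = 0.0571). All Ntrk2 here includes Ntrk2-206. The truncated class includes Ntrk2-203, a nonsense-mediated decay transcript of 583 bases, of which 151 are coding. Ntrk2-203 was at 10.753 to 32.518 FPKM over the 16 cultures, so this share is not one of truncated receptor alone. With isoforms weighted by length, the VEH groups overlapped at 68.1% ± 16.6 against 43.4% ± 12.2 (exact permutation p = 0.0571), and the TIA groups did not, at 52.4% ± 16.9 against 35.6% ± 0.949 (exact permutation p = 0.0286). Shares among protein-coding isoforms only, chosen after seeing the data, overlapped in the VEH arm and not in the TIA arm in the same way, and none passed the adjustment. The full-length share of all Ntrk2 overlapped in the VEH arm, at 20.96% ± 13.5 in OGD-VEH against 31.3% ± 9.28 in CONTROL-VEH (exact permutation p = 0.257). Leaving out any culture kept the difference in the truncated share between 21.1 and 28.3 percentage points in the VEH arm and between 15.5 and 28.5 in the TIA arm. For the full-length share the difference ran from -15.7 to -4.75 in the VEH arm and from -9.25 to -1.13 in the TIA arm. A comparison of Ntrk2-202 with Ntrk2-201 alone, chosen with the values in view, gave T1 shares of 39.4 to 66.0% in CONTROL-VEH and 50.5 to 90.5% in OGD-VEH (exact permutation p = 0.0571), where CONTROL-VEH 4 was the overlapping culture. With all isoforms of either end, also chosen with the values in view, T1 was taken as a share of T1 plus full-length. It was 60.2% ± 15.4 in OGD-TIA against 40.8% ± 2.52 in CONTROL-TIA without overlap (exact permutation p = 0.0286, padj = 0.114). This padj was adjusted over the 4 tests of this share alone and cannot be set beside the one over 44 tests. In OGD-VEH it was 74.5% ± 15.5 against 50.1% ± 12.95 in CONTROL-VEH with overlap (exact permutation p = 0.0571).

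Ntrk3 (chr7:78175959-78738012, minus strand, 20 isoforms), the receptor of neurotrophin-3, showed the largest difference of the summed values between OGD-VEH and CONTROL-VEH. It was at 36.822, 66.147, 67.261 and 36.220 FPKM in CONTROL-VEH and at 27.339, 27.395, 21.334 and 35.889 in OGD-VEH. All OGD-VEH cultures were lower than all CONTROL-VEH cultures, though OGD-VEH 12 was only just below CONTROL-VEH 4. The log2 fold change was -0.84 ± 0.26 (SE, limma padj = 0.0671), and with array quality weights the gene was called (-1.08, limma padj = 0.0101). That setting raised the calls over all genes too, to 1929 of 16346 in place of 668. In the TIA arm the groups overlapped, at 27.171 to 62.597 FPKM in CONTROL-TIA and 22.879 to 36.702 in OGD-TIA (log2 fold change -0.43 ± 0.29, limma padj = 0.425).

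Much of this sum came from short transcripts rather than from the receptor isoforms. Ntrk3-207, a processed transcript of 364 bases, was at 35.747 and 18.959 FPKM in CONTROL-VEH 2 and 3 and at or under 0.174 FPKM in all OGD-VEH cultures, and Ntrk3-211, of 395 bases, reached 21.928 FPKM in CONTROL-VEH 3. With protein-coding isoforms alone the log2 fold change was -0.22 (padj = 0.168). Full-length Ntrk3-201 was at 14.320, 15.967, 13.452 and 11.114 FPKM in CONTROL-VEH and at 12.555, 10.492, 10.004 and 5.667 in OGD-VEH, overlapping by OGD-VEH 9 and CONTROL-VEH 4 (log2 fold change -0.54 ± 0.26, limma padj = 0.301). Truncated Ntrk3-202 was among the steadiest values measured here, at 10.276 to 13.238 FPKM in all 16 cultures (log2 fold change 0.07 ± 0.13 in the VEH arm, limma padj = 0.788).

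Ngfr (chr11:95568818-95587735, minus strand), which binds all neurotrophins and their proforms, was low in these cultures. It was at 1.022, 1.001, 0.949 and 0.827 FPKM in CONTROL-VEH and at 1.095, 0.860, 0.702 and 0.418 in OGD-VEH, and OGD-VEH 9 had the highest value of both groups. Its log2 fold change was -0.33 ± 0.31 (SE, limma padj = 0.465) in the VEH arm and 0.01 ± 0.22 (limma padj = 0.990) in the TIA arm.

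Sort1 (chr3:108284082-108361511, plus strand, 3 isoforms), whose product sorts proneurotrophins and acts as coreceptor of NGFR, varied least between cultures of a group. It was at 30.697, 32.219, 34.320 and 35.760 FPKM in CONTROL-VEH and at 28.404, 24.834, 27.032 and 28.697 in OGD-VEH. All OGD-VEH cultures were lower, with a log2 fold change of -0.29 ± 0.11 (SE, limma padj = 0.0983). In the TIA arm the range was 30.269 to 33.134 FPKM in CONTROL-TIA and 28.203 to 30.159 in OGD-TIA, which did not overlap either (log2 fold change -0.12 ± 0.07, limma padj = 0.406). Sort1 was the only member whose summed value lay below its controls without overlap in both arms. Taken singly, 9.95% of genes did so in the VEH arm and 6.72% in the TIA arm, and the share in both was not computed. With protein-coding isoforms alone, the TIA groups of Sort1 overlapped (exact permutation p = 0.0571). Those of Ntrk3 then did not (exact permutation p = 0.0286). Its 3 isoforms had log2 fold changes of -0.33, -0.24 and -0.25 in the VEH arm. Summed Sort1 stayed far from 2-fold under every alternative tried, between -0.37 and -0.24 in the VEH arm.

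Of the 6 members tested in OGD-VEH against CONTROL-VEH, 0 were called, against 4.09% of the 16346 genes tested. At an unadjusted p under 0.05, 2 members (Ntrk3 and Sort1) were lower, against 14.9% of all genes (35% in either direction), and 0 were higher, against 20.2%. With median-ratio scaling this split turned, with 2605 genes higher and 2911 lower of 16300, in place of 3299 and 2430. Ntrk3 and Sort1 were also the 2 that were lower without overlap, against 9.95% of genes. Of 18 member isoforms tested in this comparison 0 were called, and of 21 in OGD-TIA against CONTROL-TIA 0 (0.0305% of 52476 isoforms). The median log2 fold change of the 6 genes was -0.34, beside 0.10 over all genes tested. In OGD-TIA against CONTROL-TIA 0 of 6 were called (0% of 16242 genes) and Sort1 was lower without overlap (6.72% of genes), with a median of -0.24 beside 0.04.

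TIA by itself left the members within their spread. In CONTROL-TIA against CONTROL-VEH the log2 fold changes of the 6 tested members lay between -0.21 (Ntrk2 and Ntrk3) and 0.04 (Ntf3), and in OGD-TIA against OGD-VEH between -0.14 (Ntrk2) and 0.41 (Ntf3), with 0 called in both (0% of 16170 and of 16351 genes). All members overlapped between these groups, apart from Gdnf in OGD at its few reads. The interaction ranged from -0.01 ± 0.44 (Bdnf) to 0.41 ± 0.41 (Ntrk3), with 0 called (0% of 16313 genes) and none at an unadjusted p under 0.05, where limma gave 6.06% of all genes. With errors of this size, the lack of calls does not show that the arms were alike. The smallest difference that could have been detected was not computed.

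**Figure D4:**
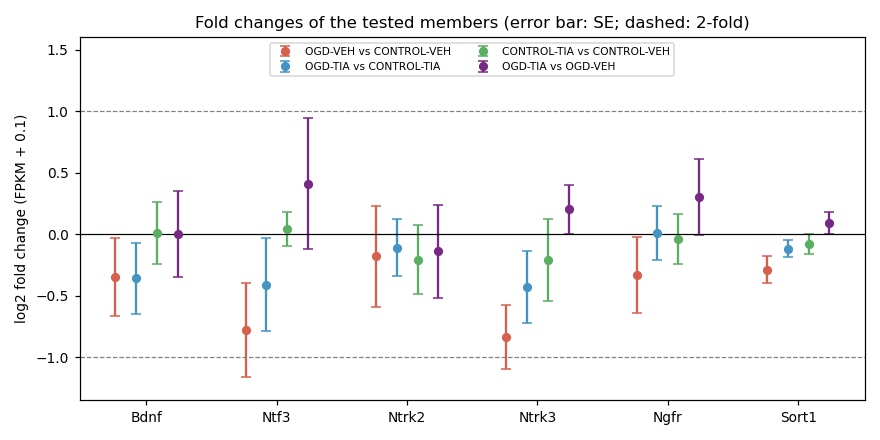
Log2 fold change of FPKM + 0.1 with its SE for the 6 tested members in 4 comparisons, 8 cultures each; dashed lines mark 2-fold. All 6 values of OGD-VEH against CONTROL-VEH lie below 0, from -0.18 (Ntrk2) to -0.84 (Ntrk3), and none reaches the lower dashed line.

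Of the other ligands of both families, 4 were listed (Ntf5, Nrtn, Artn and Pspn), 2 were tested and 0 were called, where 2.4% of all genes were called higher and 1.68% lower in OGD-VEH against CONTROL-VEH. The smallest p belonged to Artn, a ligand of the GDNF family, with a mean of 0.445 FPKM in CONTROL-VEH and 2.35 in OGD-VEH and overlapping groups (log2 fold change 1.88 ± 0.61, limma padj = 0.0738).

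Of 12 other receptors and coreceptors 11 were tested and 0 were called. The smallest p belonged to Ncam1, an adhesion molecule that also serves as a GDNF receptor, with 196.4 to 219 FPKM in CONTROL-VEH and 102 to 179.5 in OGD-VEH (log2 fold change -0.64 ± 0.16, limma padj = 0.0474, under 2-fold). At an unadjusted p under 0.05, 6 of the 11 were lower, against 14.9% of all genes, and 2 were higher, against 20.2%.

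Of 15 genes for the sorting and cleavage of proneurotrophins 11 were tested, 1 fell and 0 rose. Pcsk2, a prohormone convertase of the regulated secretory pathway, was at 30.566, 29.739, 33.622 and 27.905 FPKM in CONTROL-VEH and at 21.368, 8.973, 9.431 and 5.314 in OGD-VEH. It fell in every OGD-VEH culture (log2 fold change -1.61 ± 0.36, limma padj = 0.0420). In OGD-TIA it was at 21.017, 20.125, 22.058 and 10.995 FPKM, below CONTROL-TIA (29.22 to 32.68) without overlap, as for 6.72% of genes (log2 fold change -0.77 ± 0.21, limma padj = 0.146).

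Of 18 receptor adaptors and proximal signaling genes, all tested, 2 rose and 0 fell. Nradd, a gene for a death-domain protein related to NGFR, was at 2.952, 2.302, 2.570 and 2.439 FPKM in CONTROL-VEH and at 4.075, 9.729, 6.585 and 10.800 in OGD-VEH (log2 fold change 1.48 ± 0.30, limma padj = 0.0347). Shc1, the adaptor between activated receptor tyrosine kinases and RAS, was at 2.967, 4.319, 3.260 and 6.843 FPKM in CONTROL-VEH and at 8.005, 9.900, 9.218 and 16.788 in OGD-VEH (log2 fold change 1.33 ± 0.31, limma padj = 0.0443). Both were higher in every OGD-VEH culture, and in CONTROL-VEH, OGD-VEH and OGD-TIA the highest Shc1 lay in the cultures with the highest astrocyte sum. In CONTROL-TIA it lay in culture 7 (4.548 FPKM), which had the lowest astrocyte sum of that group. Kidins220, the scaffold of Trk receptors and NGFR, was lower in OGD-VEH (318.8 to 372.4 FPKM) than in CONTROL-VEH (409.1 to 465.6), but by less than 2-fold (-0.37 ± 0.08, limma padj = 0.0409). It was at 389.7 to 443.3 FPKM in OGD-TIA, and had the smallest interaction p of this list (0.35 ± 0.10, limma padj = 0.722).

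Of 11 activity-regulated genes that TrkB signaling is known to induce, all tested, 1 was called. Fos, a subunit of the AP-1 factor, was at 1.68 to 3.89 FPKM in CONTROL-VEH and rose to levels between 5.08 and 23.2 in OGD-VEH (log2 fold change 2.12 ± 0.44, limma padj = 0.0371). Arc, with a log2 fold change of 0.38 (padj = 0.359), and Egr1, with 0.86 (padj = 0.144), were not called. Of 13 transcription factors known to act on Bdnf promoters 12 were tested, 1 rose and 1 fell. Crem, a factor of the CREB family, rose from a mean of 8.16 to 18.2 FPKM (log2 fold change 1.19 ± 0.24, limma padj = 0.0360), and Mef2c, a neuronal factor needed for activity-dependent transcription, fell from 479 to 145 FPKM (log2 fold change -1.90 ± 0.39, limma padj = 0.0367). In OGD-TIA against CONTROL-TIA, and in the interaction, 0 genes of these 6 lists were called, where 0% of all genes were called.

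Whether these calls passed the adjustment depended on the cultures, while their direction and a change of about 2-fold or more did not. Leaving out OGD-VEH 9 raised the genes called in OGD-VEH against CONTROL-VEH from 668 to 2186 and kept all 10 calls among the listed genes, markers included, while leaving out OGD-VEH 12 left 71 calls, of which Mef2c was the only one among these 10. Leaving out any of the other 6 cultures left 1 to 18 calls and none of the 10, with padj of Nradd, Shc1, Pcsk2, Fos, Crem and Mef2c up to 0.117. Over the omissions of 1 culture the log2 fold change was 1.29 to 1.75 for Nradd, 1.11 to 1.57 for Shc1, 1.74 to 2.47 for Fos, 0.96 to 1.32 for Crem, -1.97 to -1.31 for Pcsk2 and -2.12 to -1.45 for Mef2c.

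**Figure D5:**
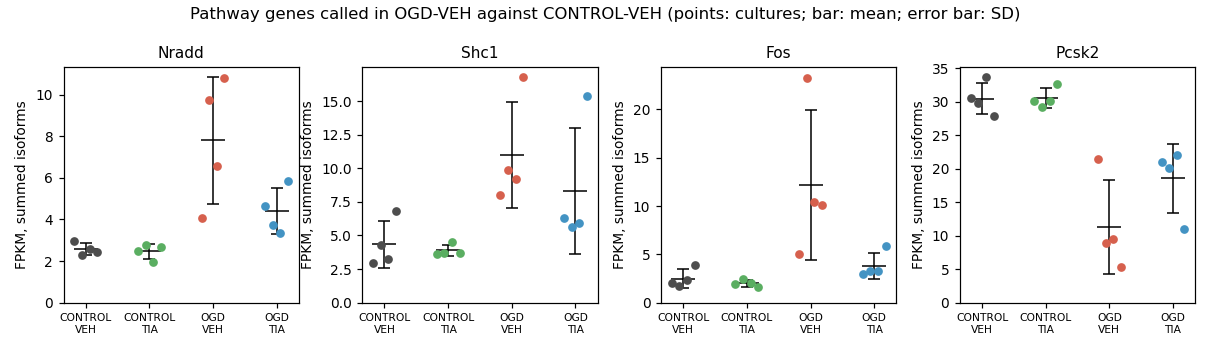
FPKM (summed isoforms, linear axes from 0) of Nradd, Shc1, Fos and Pcsk2 in 16 cultures, with points for cultures, bars for means and error bars for the SD of 4 cultures. In OGD-VEH Nradd, Shc1 and Fos lie above and Pcsk2 below all CONTROL-VEH cultures (Pcsk2 5.31 to 21.4 against 27.9 to 33.6).

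Over the 16 cultures, the genes whose log2 values followed a member most closely, among 16312 genes, differed from member to member. For Bdnf they were Limk1, Lsr and Nefm (Pearson r of 0.919, 0.919 and 0.918), and for Ntf3 Dact3, Zdhhc23 and Mgst3 (0.958, 0.954 and 0.954). For Ntrk2 they included Baalc and Spata3 (0.926 and 0.907), and for Ntrk3 Shisa6, Nrp2 and Gm49353 (0.812, 0.803 and 0.800). For Ngfr they were Cbln2, H2-DMa and Gm4430 (0.884, 0.878 and 0.877), and for Sort1 Slc35f1, Shroom2 and Fgf12 (0.944, 0.944 and 0.931). The points share the 4 groups, so these values describe likeness in this set of cultures only.

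Promoter sequences (250 bases before to 50 after a gene start, RefSeq on GRCm38.p6) were on hand for Bdnf (7), Ntf3 (2), Gdnf (2), Ntrk2 (1) and Ngfr (1). They were searched on both strands for the CRE letters TGACGTCA, the AP-1 letters TGANTCA and the E-box letters CACGTG. None of the 13 held these exact CRE letters, which are in 1.79% of all 32851 promoters. Variants such as TCACGTCA, which stands before the start of Bdnf-209, were not searched. The search thus does not show that a CRE is absent. The E-box (7.15% of all promoters) was in 1, upstream of Ntf3. The AP-1 letters (7.81% of all promoters) were in 1, upstream of the start of Bdnf-206, and no matches overlapped. The N in these letters stands for any base and is an A in this match. The search thus does not show that AP-1 binds there, which was not tested. The 250 bases before that start, chr2:109676782-109677031 on the plus strand, are shown because Fos was among the called genes, with the matching letters in capitals.
Bdnf-206 upstream: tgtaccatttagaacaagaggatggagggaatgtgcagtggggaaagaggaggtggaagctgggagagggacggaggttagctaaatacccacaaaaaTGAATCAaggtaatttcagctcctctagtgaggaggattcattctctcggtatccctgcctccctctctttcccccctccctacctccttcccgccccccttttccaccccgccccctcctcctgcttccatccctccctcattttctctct
Bdnf-206 was at 0.058 to 0.211 FPKM in CONTROL-VEH and 0.043 to 0.128 in OGD-VEH, overlapping groups at a level of few reads.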

How the data were processed

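RNA-seq of 16 primary neuronal cultures was analysed. Per the methods, the authors' libraries were made from mRNA with strand kept and read for 50 bases from one end. STAR placed the reads on GRCm38 with Ensembl release 92, and eXpress estimated the isoforms. The deposited values are FPKM per isoform, taken to be TMM-scaled from the name of the table. Read counts were not analysed here, and depth (19.67 to 24.69 M reads) is an estimate, so no counting interval is given. Of 135276 lines 74 carry no identifier, at most 0.0594% of a culture's FPKM, and were left out. GENCODE M21 held 99.89% of the isoforms, which gave types, coding ends and positions.

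Isoforms were summed by symbol. Each comparison used 8 cultures, log2(FPKM + 0.1), a minimum mean of 0.5 FPKM and limma 3.58.1 (R 4.3.3, empirical Bayes with trend), with Benjamini-Hochberg adjustment over all genes or isoforms. Fold changes on this scale understate those of low genes. The interaction used all 16 cultures. For isoform shares, exact permutation tests (two-sided, 70 assignments) were used. The fits were checked on simulated data. DESeq2, the authors' tool, models counts and was not applied. The members and lists were chosen with earlier results of these data known. Named genes are all members and the 3 genes most like each. From a list they are every called gene, or otherwise the gene with the smallest p in OGD-VEH against CONTROL-VEH. Isoforms of Bdnf and Ntrk2 with a group mean of at least 0.5 FPKM were named, and some of the other members. Some genes are not reported here. Arc, Egr1, Kidins220 and Bdnf-206 were named after their values were seen. Alternatives were other pseudocounts, filters, scaling, weights and isoform sums, and leaving out each culture. Other computation used Python 3.11.15, pandas 2.3.3, numpy 2.4.6, scipy 1.17.1 and matplotlib 3.10.9.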

Additional observations from a re-analysis of the deposited data

Results flagged for a closer look

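In 68 groups of 4 cultures (the members, 6 isoforms and 4 shares), the highest or lowest culture was checked for a wide gap to the others relative to the range of the group, and 8 stood apart. Chance flags about 1 in 20 such groups. In CONTROL-VEH, culture 4 was low in Bdnf (1.228 FPKM, the next 2.418) and high in T1 isoform Ntrk2-202 (90.55, the next 28.15). In CONTROL-TIA, culture 8 was high in Ntrk2-201 (44.92, the next 36.64) and in Ntrk2-202 (33.1, the next 24.21). In OGD-VEH, culture 12 was high in summed Ntrk2 (259.5, the next 97.74) and in Ntrk2-205 (11.04, the next 3.149). In OGD-TIA, culture 16 was high in Ntrk2-202 (76.5, the next 28.82) and culture 13 in Ngfr (1.203, the next 0.862). The astrocyte marker sum was the highest of its group in each of CONTROL-VEH 4, CONTROL-TIA 8, OGD-VEH 12 and OGD-TIA 16, and its part in these values was not tested.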

How the results depend on the processing

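No member was called under any alternative in the 5 comparisons, except that Ntrk3 was called in OGD-VEH against CONTROL-VEH with array quality weights (1 member in place of 0). With these weights 1929 of 16346 genes were called in that comparison, in place of 668. Of 633 alternative values of the members 59 had the other sign, and 3 of these differed from the main value by more than its SE. These were Ntf3 in OGD-TIA against CONTROL-TIA without OGD-TIA 16 (0.01, also when OGD-VEH 9 and 12 were left out, with a range of -0.64 to 0.01 over omissions of 1 culture) and Ntrk2 in the same comparison with protein-coding isoforms only (0.20). The difference in the Ntrk3 full-length share of OGD-VEH was 8.26 percentage points, and it turned to -4.95 with isoforms weighted by length and to -10.5 with protein-coding isoforms only. Leaving out 1 culture gave 0 to 1 isoforms called in OGD-VEH against CONTROL-VEH (Ntrk2-201 without OGD-VEH 9) and 0 to 1 in OGD-TIA against CONTROL-TIA (Ntrk2-206 without OGD-TIA 14). Over all isoforms, these fits called 1730 of 53164 and 17 of 52425.

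Over all genes, OGD-VEH against CONTROL-VEH gave 668 calls, and 36 without a filter, 1929 with array quality weights, 1390 with all cultures in one fit, 1073 with isoforms weighted by length, 1347 without OGD-VEH 9, OGD-VEH 12 and OGD-TIA 16, and 1 to 2186 without 1 culture. The other comparisons gave 0 calls, and up to 80 (OGD-TIA against CONTROL-TIA), 408 (OGD-TIA against OGD-VEH), 4 (CONTROL-TIA against CONTROL-VEH) and 101 (interaction) under settings that kept all cultures. At an unadjusted p under 0.05 these 4, in the same order, held 3174, 1293, 621 and 988 genes. Without OGD-VEH 9, OGD-VEH 12 and OGD-TIA 16, there were 619 calls in OGD-TIA against OGD-VEH and 382 in the interaction. The cause of these differences was not tested. Leaving out OGD-VEH 9, OGD-VEH 12 and OGD-TIA 16 together, leaving out CONTROL-VEH 4 from every comparison, and the shares over other sets of isoforms were chosen after the data were seen. No paired analysis was run, because the groups share no replicate numbers and no label gives a pairing. Whether cultures of different groups shared a preparation is not known. If they did, the errors given here would include the spread between preparations. Depth limits Gdnf, at 0 to 6 reads, and 50-base reads limit how isoforms are told apart.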
